A study of Homo sapiens with 208 samples.

Results

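PC9, a line of human lung adenocarcinoma cells, carries an activating deletion in the kinase domain of EGFR and is sensitive to gefitinib, an inhibitor of that kinase. The 10 arrays described here are the PC9 arrays labelled with gefitinib and without EGF from both ends of a 24 h course, out of 208 arrays in the study. They comprise 5 early arrays (0, 0.5, 1, 2 and 3 h) and 5 late arrays (20, 21, 22, 23 and 24 h), and 16 further arrays of the same course, from 4 to 19 h, gave the hours in between. All cells were starved for 48 h, and 0.5 µM gefitinib was added 2 h before the 0 h sample, so that the early window was itself already under the drug. Untreated PC9 received the same starvation and neither gefitinib nor EGF. The EGF and gefitinib course received the drug and then 100 ng/ml EGF at 0 h. PC9M2 is a resistant line grown out of PC9 under a low dose of gefitinib, and its gefitinib course had the same hours.

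No hour was repeated, so the hours of a window stood in for replicates (n = 5 arrays a window). Errors and p-values below therefore measure the spread over neighbouring hours and over the slides that carried them, and nothing in the labels ties them to separate cultures. Each slide held the 4 treatments of 1 hour, and the 10 arrays lay on 10 slides. The early and the late arrays shared 0 scan days, so that time, slide and scan day cannot be told apart within the drug course. Untreated PC9 lay on the same slides, which is why changes under the drug are set beside those of untreated cells at matched hours. Features well above background numbered 33271 to 35938 on the early arrays and 26384 to 29459 on the late arrays, and untreated PC9 had 33264 to 34909 and 26776 to 29686. The net signal of the negative control spots was 13.5 to 16.8 on the early and 23.9 to 36.4 on the late arrays. Of 27 epithelial genes, 25 were well above background on all 10 arrays, with a summed linear intensity of 366000 to 507000 early and 431000 to 463000 late. Of 10 fibroblast markers, 1 (THY1) was well above background on all 10 arrays, with sums of 619 to 1180 early and 749 to 922 late, and the collagen genes COL1A2 and COL3A1 never were. Of 10 leukocyte markers, 4 were on all 10 arrays and PTPRC, CD3D and MS4A1 never were, with sums of 1470 to 1710 early and 1410 to 2030 late.

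EGFR is a receptor tyrosine kinase that passes growth signals through the RAS-ERK and PI3K-AKT pathways. Active ERK switches on feedback genes such as DUSP6 and the SPRY genes and, through D-type cyclins and E2F factors, the genes of DNA replication. Active AKT keeps FOXO transcription factors out of the nucleus, and FOXO targets include receptors and docking proteins through which growth signals can return when the pathway is blocked.

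Levels are given as log2 normalized intensity of 1 probe a gene, and a change is the late mean minus the early mean, so that a change of 1 is a 2-fold difference. A gene is said to have risen or fallen where its adjusted p was under 0.05 by limma, the p-values being adjusted by Benjamini and Hochberg's method over all 13263 genes tested. Of these, 8636 (65.1%) changed between the windows, 4259 (32.1%) upwards and 4377 (33%) downwards. The 5 late arrays did not overlap the 5 early arrays in 6579 genes (49.6%). A change of at least 2-fold was also reached by 3911 of the genes called (29.5%), 1908 up and 2003 down. With so large a share of all genes on the move, the count of any gene group is to be read against these percentages.

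Untreated PC9 changed as well over the same hours. In the untreated cells, 7256 genes (54.7%) were called, 3399 (25.6%) higher and 3857 (29.1%) lower in the late window. The change under gefitinib differed from the change without it at matched hours in 7994 of 13261 genes (60.3%), being more positive with the drug in 4117 (31%) and more negative in 3877 (29.2%). The median absolute change was 0.63 with gefitinib and 0.50 without it. These comparisons share arrays, the drug arrays being in the first and the last and the untreated arrays in the last and the middle one, so the values of each gene are set side by side below and no overlap is drawn from them. The EGF and gefitinib course had its own arrays, on the same slides, and there 8902 of 13262 genes (67.1%) were called, 4378 (33%) higher and 4524 (34.1%) lower. In total 7767 genes were called in both drug courses, 89.9% of the calls with gefitinib and 87.2% of those with EGF and gefitinib, and 7766 of them had the same direction.

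The 8 largest rises lay between 4.46 and 4.98 on the log2 scale. They and the 8 largest falls were taken among called genes with windows that did not overlap. The higher window also had to be well above background on all 5 arrays. That the windows of these genes lay apart was therefore set by the choice. ATP6V1B1, a subunit of the vacuolar proton pump, stood at 6.27, 6.89, 7.21, 8.15 and 8.88 from 0 to 3 h and at 12.3, 12.05, 12.57, 12.7 and 12.68 from 20 to 24 h. The windows lay apart, the early arrays climbed from each hour to the next, and the change was 4.98 (SE 0.407, adjusted p = 8.92e-07). In untreated PC9 the same gene went from 6.4 to 5.77, and the change with gefitinib was more positive by 5.6 (SE 0.401, adjusted p = 4.76e-07). AQP3, a channel for water and glycerol, stood at 10.05, 9.79, 9.59, 9.96 and 10.35 early and at 14.49, 14.32, 15.09, 15.07 and 14.97 late. All 5 late arrays were above all 5 early arrays, by 4.84 on average (SE 0.189, adjusted p = 6.5e-09), while the untreated mean went from 9.61 to 9.97. The other 6 of the 8 largest rises were TPPP3, a tubulin polymerization protein (change 4.93), FBLN2, an extracellular matrix fibulin (4.7), CYP4B1, a cytochrome P450 of the lung (4.7), AGXT, a peroxisomal aminotransferase (4.57), CCN5, a secreted matricellular protein (4.55), and PLXDC1 (4.46). Untreated PC9 had PLXDC1 at 4.58 to 5.48 early and at 5.67 to 7.07 late, and the changes differed by 3.04. FBLN2 and AGXT were well above background on 2 of 5 early arrays. Untreated PC9 had late means of 2.24, 2.1 and 1.93 for FBLN2, AGXT and CCN5, not well above background on any of its 5 late arrays.

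The 8 largest falls were those of ETV5, ITGA6, APCDD1L, SLC7A11, ITGA2, SGPP2, CA9 and CYP1A1, of which ETV5 and CA9 are described with their gene lists. ITGA6, the integrin alpha subunit of laminin receptors, stood at 12.61, 12.84, 12.98, 12.82 and 12.67 early and at 7.61, 7.84, 7.29, 7.2 and 7.62 late. Neither window spread over more than 1 unit, and ITGA6 fell by 5.27 (SE 0.141, adjusted p = 2.59e-09). Untreated PC9 stayed at 13.09 and 12.7, and the change with the drug was more negative by 4.89 (SE 0.132, adjusted p = 3.87e-09). ITGA2, the integrin alpha subunit of collagen receptors, went from a mean of 8.59 to 3.63, where it was not well above background on any late array, and was at least 14.1-fold lower (adjusted p = 3.85e-07). Such a bound sets the bright window against the lowest signal that was well above background on each dim array, or the probe's own signal where that was higher. SLC7A11, the cystine and glutamate exchanger, was at least 7.51-fold lower, with a mean of 7.66 early and 2.57 late. APCDD1L was at least 5.92-fold lower, with 7.31 early and 2.18 late. Untreated PC9 had ITGA2 at 8.84, 8.86, 8.84, 9.11 and 8.76 early and at 6.04, 8.15, 6.11, 7.01 and 6.92 late. The changes of ITGA2, SLC7A11 and APCDD1L with the drug were -4.96, -5.09 and -5.14. Their differences from the changes in untreated PC9 were smaller in size, at -2.92, -4.16 and -3.79. SGPP2, a phosphatase of sphingosine 1-phosphate, fell from 10.41 to 5.73 and stayed at 10.93 and 10.15 without the drug. CYP1A1, a P450 that the aryl hydrocarbon receptor induces, fell from 8.88 to 4.25, but it also went from 7.94 to 3.57 in untreated PC9 and the changes differed by 0.26 (adjusted p = 0.49). CYP1A1 was well above background on 1 of 5 late drug arrays and on none of the 5 late untreated arrays.

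**Figure D1:**
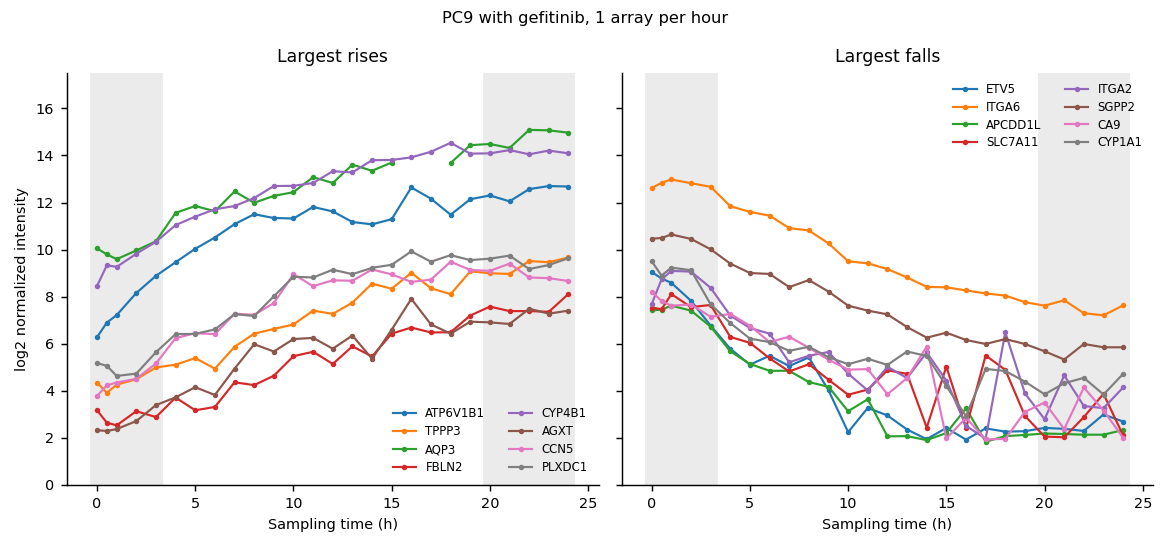
Log2 normalized intensity (vertical axis) against hours (horizontal axis) in PC9 with gefitinib, for the 8 genes with the largest rises and the 8 with the largest falls. Each point is 1 array of 26, the shaded bands are the early and the late window, and AQP3 has no point at 16 and 17 h, where its spots were outliers. Most of the movement lay between the bands: AQP3 went from a mean of 9.95 to 14.79 and ITGA6 from 12.78 to 7.51.

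Ranked by their difference from untreated PC9, the 10 further genes were SPEF2, NEK3, EEF1AKMT2, IFITM1 and NKAIN4 on the rising side and ANKRD22, MARCHF4, GREB1, HSD3B1 and ARNT2 on the falling side. SPEF2, a protein of sperm flagella, went from 5.62 to 8.8 with the drug and from 5.22 to 2.16 without it, a difference of 6.24 (SE 0.279, adjusted p = 3.24e-08). NEK3, a kinase of the NIMA family, went from 4.19 to 8.38 with the drug and from 4.21 to 2.41 without it (difference 5.99). SPEF2, NEK3, EEF1AKMT2 and NKAIN4 were not well above background on any late untreated array, so the size of their differences rests partly on dim values. ANKRD22 fell from 9.56 to 5.56 with the drug and went from 9.87 to 11.87 without it, a difference of 6 downwards (SE 0.169, adjusted p = 4.18e-09). ARNT2, a transcription factor of the bHLH-PAS family, fell from 8.8 to 4.96 with the drug and went from 8.26 to 9.66 without it. HSD3B1, a steroid dehydrogenase, was at least 11.3-fold lower late with the drug and went from 9.52 to 10.14 without it. MARCHF4, a ubiquitin ligase, fell from 9.16 to 5.38 with the drug and went from 9.61 to 11.13 without it. GREB1, an estrogen-responsive gene, was at least 1.08-fold lower late with the drug, with a measured mean of 4.86 early and 1.98 late, and its probes changed by between -2.88 and -0.14.

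ERK feedback and target genes fell further over the day. Of 21 tested ERK feedback and target genes, 14 fell and 1 (CCND1) rose, with a median change of -1.07 against -0.03 over all genes, and -0.31 after normexp background correction. DUSP6, the phosphatase that removes phosphate from ERK, stood at 9.32, 8.9, 9.03, 8.4 and 8.22 early and at 5.62, 5, 5.78, 5.48 and 5.21 late. The early arrays were all above the late ones, and DUSP6 fell by 3.35 (SE 0.223, adjusted p = 2.05e-07). Untreated PC9 held DUSP6 at 13.06 early and 13.61 late, above every drug array of both windows. ETV5, an ETS transcription factor downstream of ERK, stood at 9.04, 8.77, 8.58, 7.82 and 6.76 early and at 2.41, 2.37, 2.28, 2.98 and 2.68 late. Its early arrays descended from each hour to the next, no late array was well above background, and ETV5 was at least 10.9-fold lower late (adjusted p = 1.84e-07). SPRY4, a feedback inhibitor of receptor tyrosine kinases, had 6.03 ± 0.6 early and 5.58 ± 0.23 late (SD, n = 5 arrays each, adjusted p = 0.137), against 10.77 and 9.72 in untreated PC9. The median level of these genes was 1.53 lower with gefitinib than without it in the early window (difference -1.53) and 2.56 lower in the late window (difference -2.56). In untreated PC9, 6 of the 21 rose and 7 fell, with a median change of -0.16. Against untreated PC9, the change was more negative in 11 and more positive in 1.

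The immediate-early genes, which are induced within minutes of a growth signal, did not move together. Of 23 tested, 10 rose and 5 fell, with a median change of 0.25 (0.13 after normexp). EGR1 went from 7.48 to 6.34 and fell by 1.14 (SE 0.238, adjusted p = 0.00126), and EGR3 was at least 1.55-fold lower. FOS, a subunit of AP-1, went from 8.27 to 9.97 and rose by 1.7 (SE 0.151, adjusted p = 1.72e-06), and JUNB from 8.56 to 10.46. Untreated PC9 had FOS at 11.9 and 11.97, above every drug array of both windows. Against untreated PC9, the change was more positive in 7 of the 23 and more negative in 6, and the sign of that median (0.07) turned when arrays were scaled to their 75th percentile.

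Nearly all genes of DNA replication and S phase fell. Of 50 tested, 47 fell and 2 rose, with a median change of -1.49, and against untreated PC9 the change was more negative in 47 and more positive in 0, with a median of -2.1. In untreated PC9, 30 of the 50 rose and 4 fell. RRM2, the small subunit of ribonucleotide reductase, stood at 9.77, 10.23, 10.32, 10.19 and 9.61 early and at 7.16, 7.13, 6.94, 7 and 7 late. The late arrays were all below 8 and the early ones all above 9, and RRM2 fell by 2.98 (SE 0.148, adjusted p = 2.84e-08), while untreated PC9 went from 10.18 to 10.94. DTL, the substrate receptor of a ubiquitin ligase that acts in S phase, fell by 3.25 (SE 0.146), from 8.84 ± 0.19 to 5.59 ± 0.25 (SD, n = 5 arrays each). MCM2, a subunit of the replicative helicase, fell from 12.62 to 10.56. The 2 that rose were E2F2, a transcription factor of the E2F family (12.72 to 13.78, with probes that disagreed in sign, and 11.76 to 12.5 without the drug), and LIG1, a DNA ligase (13.27 to 13.58, adjusted p = 0.0214). The call of LIG1 was lost without the 0.5, 1 or 23 h array (adjusted p = 0.0566, 0.0608 and 0.0512) and with scan day as a block (0.157).

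Most mitotic genes fell as well. Of 53 tested, 38 fell and 3 rose, with a median change of -0.73, while in untreated PC9 27 rose and 8 fell. Against untreated PC9 the change was more negative in 41 and more positive in 3. MYBL2, a transcription factor of the G2/M programme, stood at 11.62, 11.49, 11.63, 11.71 and 10.92 early and at 8.82, 8.65, 8.64, 8.35 and 8.41 late. It fell by 2.9 (SE 0.162, adjusted p = 6.55e-08), and the 3 h array was already the lowest of the early ones. CENPI, a kinetochore protein, was at least 3.33-fold lower, and untreated PC9 went from 6.27 to 7.69. CCNB1 fell from 13.37 to 12.77 and CDK1 from 11.84 to 10.4, the partners that drive entry into mitosis. The 3 h array was the highest early array for CDK1, at 12.33 against 11.66 to 11.8. Among the 3 that rose were TACC3, a spindle protein (10.17 to 11.21), and CENPF, a kinetochore protein (7.67 to 8.44). Untreated PC9 had TACC3 at 10.39 and 11.47 and CENPF at 7.79 and 8.36, and neither change differed from that without the drug by the test (differences -0.03 and 0.2, adjusted p = 0.834 and 0.337). The probe of CENPF with the highest mean changed by 0.07 (adjusted p = 0.764).

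Promoters of these genes are printed for those in which motifs of the cell cycle were found, with the motif in capitals. Each window is the 250 bases before the start of the gene in RefSeq (build GRCh38.p14, read 5′ to 3′ on the gene's strand); the arrays' own annotation used another build, and no coordinate was taken from it. Motifs were searched on both strands, so that a capital stretch can be the reverse complement of the letters given. For S phase, the letters were TTTCCCGC, TTTGGCGC and TTTCGCGC, forms of the E2F site. Of the 47 genes that fell, 42 had a window and 15 of these (35.7%) held at least 1 of the forms, against 3.84% of 10690 windows of tested genes and 2.38% of all 27305 windows. Both S phase genes that rose, E2F2 and LIG1, held a form too. DTL (chr1:212035498-212035747, + strand) and GINS2, a subunit of the replicative helicase complex that fell by 2.96 (chr16:85688955-85689204, - strand), are shown. They are the holders that fell most, with those on 1 chromosome left out of the choice.
DTL: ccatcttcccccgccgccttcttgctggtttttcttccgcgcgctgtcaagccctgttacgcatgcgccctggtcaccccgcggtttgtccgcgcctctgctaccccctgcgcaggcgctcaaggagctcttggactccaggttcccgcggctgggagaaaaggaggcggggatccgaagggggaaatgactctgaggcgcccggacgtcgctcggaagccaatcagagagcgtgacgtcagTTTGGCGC
GINS2: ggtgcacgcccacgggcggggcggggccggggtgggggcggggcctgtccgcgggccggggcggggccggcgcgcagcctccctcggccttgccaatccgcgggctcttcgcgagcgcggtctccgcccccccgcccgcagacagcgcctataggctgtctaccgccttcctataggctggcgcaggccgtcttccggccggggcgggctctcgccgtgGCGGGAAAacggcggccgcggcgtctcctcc

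For mitosis, the letters were CCAAT, the site of NF-Y, and TTTGAA, the core of the CHR element, and neither run of letters lies within the other. Of the 38 mitotic genes that fell, 32 had a window, of which 22 (68.8%) held CCAAT against 35.1% of the windows of tested genes. TTTGAA was in 18 (56.2%), against 8.79%. All 3 mitotic genes that rose had a window, of which 1 (CENPF, at 3 places) held CCAAT and 0 held TTTGAA. A match is a run of letters and not a site shown to be bound, and chance matches of so short a run are common, as the background shares show. KIF20B, a kinesin of cytokinesis that fell by 1.54, held CCAAT at 2 places (chr10:89701340-89701589, + strand), and CKAP2L, a spindle protein that fell by 1.49, held both motifs at 2 places each (chr2:112764610-112764859, - strand). Both were chosen for these matches after their values were seen, and both also fell in untreated PC9, with changes of -1.04 and -0.99.
KIF20B: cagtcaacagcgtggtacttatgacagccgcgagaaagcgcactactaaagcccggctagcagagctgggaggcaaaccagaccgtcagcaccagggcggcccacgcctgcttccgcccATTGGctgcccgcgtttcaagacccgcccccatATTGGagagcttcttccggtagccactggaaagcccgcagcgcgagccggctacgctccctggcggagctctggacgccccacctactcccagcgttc
CKAP2L: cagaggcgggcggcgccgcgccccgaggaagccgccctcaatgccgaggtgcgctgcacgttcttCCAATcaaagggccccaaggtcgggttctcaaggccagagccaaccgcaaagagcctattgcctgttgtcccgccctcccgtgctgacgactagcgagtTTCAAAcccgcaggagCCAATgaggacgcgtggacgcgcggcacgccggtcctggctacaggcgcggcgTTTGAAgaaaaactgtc

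The D-type cyclins, CDK inhibitors and quiescence genes rose in 15 of 24 and fell in 5, with a median change of 0.82 (0.53 after normexp). Against untreated PC9 the change was more positive in 7 and more negative in 4. TOB1, an antiproliferative protein, rose from 10.19 to 12.43, and GAS6, a ligand of the TAM receptors that accumulates in resting cells, from 6.28 to 8.2. The rises were 2.24 for TOB1 and 1.91 for GAS6, and they exceeded the changes in untreated PC9 by 1.18 and 1.65. CDKN1B, the inhibitor p27, rose from 8.45 to 9.27, but untreated PC9 went from 7.76 to 8.59 and the difference was 0 (adjusted p = 0.991). CCND1 rose from 7.64 to 8.45 (adjusted p = 0.0116), and its probes disagreed in sign (adjusted p = 0.0574 with scan day as a block). CDK4, the kinase partner of D-type cyclins, fell from 14.09 to 12.49. RBL1, a pocket protein, went from 4.46 to 3.46 (adjusted p = 0.0332) with 0 of 5 late arrays well above background. Without the 24 h array the change of RBL1 was -0.65 (adjusted p = 0.0437), and the call was lost without the 0.5, 1, 2 or 3 h array (adjusted p = 0.0555 to 0.076) and with scan day as a block (0.196).

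**Figure D2:**
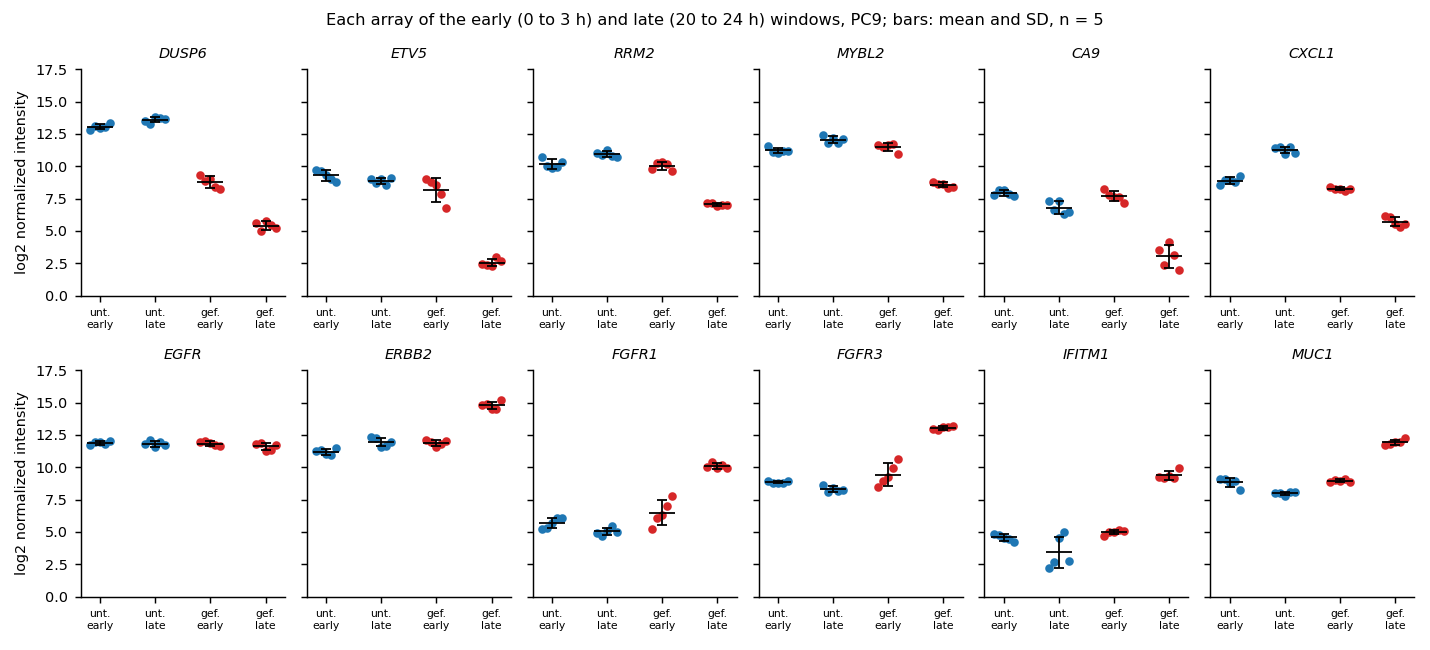
Log2 normalized intensity (vertical axis) of 12 genes in untreated PC9 and in PC9 with gefitinib, early and late. Each point is 1 array, and the bar is the mean with its SD (n = 5). DUSP6, ETV5, RRM2, MYBL2, CA9 and CXCL1 were lower and ERBB2, FGFR1, FGFR3, IFITM1 and MUC1 higher in the late gefitinib window, and the EGFR windows overlapped.

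Genes that build ribosomes fell with the proliferation genes. Of 48 tested ribosome biogenesis genes, 37 fell and 2 rose, with a median change of -0.84. In untreated PC9, 17 fell and 4 rose, with a median of -0.28, and the change was more negative with the drug in 28 and more positive in 5. UTP20, a factor of small subunit processing, fell from 9.77 to 7.41 and untreated PC9 went from 9.92 to 9.64. BOP1, a factor of large subunit assembly, fell from 13.01 to 10.89, and also from 13.14 to 11.96 without the drug. NOP56, a core protein of box C/D particles, fell from 13.41 to 12.57 and went from 14.23 to 13.8 without the drug (difference -0.41, adjusted p = 0.183), and NCL, nucleolin, fell from 12.49 to 11.77. The probes of NCL changed by between -0.73 and -0.02, and its adjusted p was 0.0876 with scan day as a block. UBTF, the factor that opens ribosomal DNA for RNA polymerase I, went the other way and rose by 2.61 (SE 0.196), from 6.89 to 9.5. GNL3, a nucleolar GTPase, rose by 0.33 (adjusted p = 0.0209). The call of GNL3 was lost without the 2, 22 or 23 h array (adjusted p = 0.0522, 0.0557 and 0.0588) and with scan day as a block (0.158).

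Glycolysis and HIF targets split. Of 38 tested, 18 fell and 9 rose, with a median change of -0.31, whereas 21 rose and 6 fell in untreated PC9. The change was more negative with the drug in 23 and more positive in 5. CA9, a carbonic anhydrase and HIF target, stood at 8.21, 7.81, 7.61, 7.66 and 7.14 early and at 3.49, 2.36, 4.13, 3.15 and 1.99 late. No late array was well above background, and CA9 was at least 7.65-fold lower (adjusted p = 5.98e-07). Untreated PC9 had CA9 at 7.67 to 8.18 early and lower late, at 6.3 to 7.32 (difference of the changes -3.54). PDK1, the kinase that closes entry of pyruvate into mitochondria, fell from 10.46 to 7.89, and untreated PC9 went from 10.6 to 11.09. LDHA, lactate dehydrogenase A, had 15.21 ± 0.3 early and 15.48 ± 0.38 late, and SLC2A1, the basal glucose transporter, 13.16 ± 0.34 and 13.38 ± 0.27 (SD, n = 5 arrays each). Neither passed the limma test (adjusted p = 0.246 and 0.295). SLC2A3, another glucose transporter, rose from 7.76 to 9.35 and PFKFB3, an activator of phosphofructokinase, from 4.87 to 7.09, both of which also rose in untreated PC9. The difference of the changes was 0.51 for SLC2A3 (adjusted p = 0.207) and 0.81 for PFKFB3 (adjusted p = 0.0345). The latter call was lost without hour 0.5, 3, 20, 22 or 24 (adjusted p = 0.056 to 0.0813) and with scan day as a block (0.0546).

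Among the receptors and ligands of the ERBB family, EGFR itself did not pass the test while ERBB2 rose. EGFR stood at 11.98, 12.05, 11.84, 11.69 and 11.62 early and at 11.83, 11.9, 11.24, 11.34 and 11.72 late. The windows overlapped, and the change was -0.23 (SE 0.155, adjusted p = 0.216). With 22 to 24 h set against 0 to 1 h it was -0.52 (adjusted p = 0.0235). ERBB2, the partner receptor without a known ligand, stood at 12.11, 11.92, 11.55, 11.77 and 12.03 early and at 14.85, 14.91, 14.5, 14.49 and 15.17 late. All late arrays were above all early ones, and ERBB2 rose by 2.91 (SE 0.16, adjusted p = 5.71e-08), against 11.21 to 11.94 in untreated PC9. The difference of the changes was 2.17 (SE 0.148, adjusted p = 3.24e-07). HBEGF, a ligand of EGFR, fell from 8.72 to 6.34, and untreated PC9 held it at 10.69 and 10.6. CBLB, a ubiquitin ligase for receptors, rose from 7.04 to 8.75 and LRIG3 fell from 7.71 to 6.24. The rise of CBLB was 1.71, and it exceeded the change in untreated PC9 by 0.75. The call of that difference was lost without hour 0, 0.5, 3 or 23 (adjusted p = 0.0522 to 0.0584) and with scan day as a block (0.0592). ERBB3, the kinase-poor partner that binds PI3K, went from 12 to 12.47 (adjusted p = 0.0477) and from 10.97 to 10.26 without the drug. The call of ERBB3 was lost on leaving out 7 of the 10 arrays singly (adjusted p = 0.0523 to 0.112) and with scan day as a block (0.318). Of 16 tested members, 4 rose and 8 fell.

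Of the other receptor kinases and ligands that can carry growth signals past EGFR, 22 were tested, 11 rose and 10 fell. FGFR1 stood at 5.24, 6.05, 6.33, 7.01 and 7.77 early and at 10.03, 10.41, 9.92, 10.18 and 9.92 late. It climbed from each early hour to the next and was about level within the late window, a rise of 3.61 (SE 0.375, adjusted p = 5.86e-06). FGFR3 stood at 8.44, 8.94, 9.23, 9.98 and 10.6 early and at 12.93, 12.87, 13.14, 13.12 and 13.22 late, a rise of 3.62 (SE 0.335, adjusted p = 2.34e-06). Both fibroblast growth factor receptors went down in untreated PC9, from 5.68 to 5.03 and from 8.84 to 8.3. MET, the receptor of HGF, fell from 6.18 to 5.02, and went from 6.91 to 6.28 without the drug (difference -0.54, adjusted p = 0.14). AXL, a TAM receptor, fell from 6.85 to 6.2 and stood at 6.96 and 7.08 without the drug. MST1R, the receptor of macrophage-stimulating protein, fell from 12.02 to 10.65, against 12.04 to 11.69 without it. DDR2, a collagen receptor, went from 4.3 to 2.18 with 0 of 5 late arrays well above background.

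FOXO targets and the genes of insulin receptor feedback rose in 16 of 27 and fell in 3, with a median change of 0.86 (0.44 after normexp). In untreated PC9, 14 rose and 4 fell, with a median of 0.53, and the change was more positive with the drug in 12 and more negative in 7. PIK3IP1, an inhibitor of PI3K, rose from 7.81 to 10.14, and went from 5.92 to 7.15 without the drug. TNFSF10, the death ligand TRAIL, rose from 8.22 to 10.42, and stayed at 5.45 and 5.58 without it. IRS2, a docking protein of the insulin receptor, rose from 8.61 to 9.76, and as far in untreated PC9, from 7.94 to 9.09 (difference 0, adjusted p = 0.989). EIF4EBP1, a repressor of translation, fell from 14.14 to 11.53, and from 14.5 to 12.37 without the drug. SOD2, a mitochondrial antioxidant enzyme, fell from 11.79 to 10.14 and rose from 11.44 to 12.39 without it. TXNIP, an inhibitor of thioredoxin, had 15.48 ± 0.62 early and 16.08 ± 0.38 late (SD, n = 5 arrays each, adjusted p = 0.0857).

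Genes of cell death showed no common direction. Of 10 BH3-only genes, the proapoptotic group, 4 rose and 4 fell. BMF rose from 8.48 to 9.41, BAD from 11.36 to 12.4 and HRK from 10.72 to 11.82. BNIP3L fell from 12.02 to 10.58 and BIK from 8.82 to 7.47, the latter also from 8.93 to 8.08 without the drug (difference -0.5, adjusted p = 0.0566). BCL2L11, the gene of BIM, had a change of -0.12 (adjusted p = 0.546). The probes of BCL2L11 and of HRK disagreed in sign. Of 16 BCL2 survival and effector genes, 7 rose and 5 fell. APAF1, the scaffold of the apoptosome, rose from 6.11 to 7.38, and from 5.4 to 6.85 in untreated PC9 (difference -0.19, adjusted p = 0.588). BIRC3, an inhibitor of apoptosis, fell from 11.66 to 9.74, and untreated PC9 went from 11.44 to 12.73. MCL1, a survival protein, rose from 9.37 to 9.95 (adjusted p = 0.0135, and 0.0991 with scan day as a block). BCL2L1, the gene of BCL-XL, had a change of -0.42 (adjusted p = 0.273). The median of the BH3-only genes (-0.21) turned sign when arrays were scaled to their 75th percentile.

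Interferon-stimulated genes moved both ways. Of 47 tested, 20 rose and 13 fell, with a median change of 0.09 (0.05 after normexp). IFITM1, a membrane protein that restricts viral entry, stood at 4.67, 5.03, 5, 5.14 and 5.07 early and at 9.23, 9.17, 9.3, 9.17 and 9.94 late. It rose by 4.38 (SE 0.163, adjusted p = 5.75e-09), and untreated PC9 went from 4.58 to 3.42, where 1 of 5 late arrays was well above background. GBP2, an interferon-induced GTPase, rose from 9.61 to 13.13, and stayed at 8.69 and 9.01 without the drug. IFIT1, a sensor of foreign RNA, rose from 8.22 to 10.43, but untreated PC9 went from 7.67 to 9.58 and the difference was 0.3 (adjusted p = 0.0509, and 0.0434 with arrays scaled to their 75th percentile). OASL fell from 9.84 to 7.54, and HERC5, the ligase that attaches ISG15, was at least 2.1-fold lower. ISG15 itself had a change of -0.24 (adjusted p = 0.112). Against untreated PC9, the change was more positive in 15 and more negative in 20.

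The interferon-stimulated response element was searched as TTTC, 2 bases of any kind and TTTC in the same RefSeq windows. It was in 8 of the 16 windows of genes that rose (50%) and in 7 of the 10 windows of genes that fell (70%), against 2.43% of the windows of tested genes, so holders stood on both sides. The windows of IFITM1 (chr11:313790-314039, + strand), of IFI6, a mitochondrial protein that rose by 2.42 (chr1:27672193-27672442, - strand), and of HERC5, which fell (chr4:88456869-88457118, + strand), are printed to show the element in genes that moved in opposite directions. Motifs were searched for 4 other lists. A FOXO site, searched as GTAAACA, was in 0 of the 15 windows of FOXO targets that rose, against 1.96% of the windows of tested genes. A sterol element (TCACCCCAC) was in 0 of 10 windows of cholesterol synthesis genes that fell and 0 of 6 that rose (0.365% of those tested), and an ATF4 element (TGATGCAAT) in 0 of 13 and 0 of 5 (0.122%). Of the clock genes, CACGTG was in 2 of 6 windows of risers and 0 of 9 of fallers (8.64%), and TTATGTAA in 0 and 1 (0.402%). A window without a match says only that these letters are not in it.
IFITM1: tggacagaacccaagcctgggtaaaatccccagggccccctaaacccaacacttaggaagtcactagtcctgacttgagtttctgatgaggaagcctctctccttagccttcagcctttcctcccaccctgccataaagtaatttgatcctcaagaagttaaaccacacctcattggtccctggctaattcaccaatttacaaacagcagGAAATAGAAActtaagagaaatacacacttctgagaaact
IFI6: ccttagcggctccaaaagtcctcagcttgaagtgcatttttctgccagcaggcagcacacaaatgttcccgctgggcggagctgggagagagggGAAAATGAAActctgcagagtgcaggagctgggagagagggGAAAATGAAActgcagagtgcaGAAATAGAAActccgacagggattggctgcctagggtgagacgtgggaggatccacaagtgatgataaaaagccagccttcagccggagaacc
HERC5: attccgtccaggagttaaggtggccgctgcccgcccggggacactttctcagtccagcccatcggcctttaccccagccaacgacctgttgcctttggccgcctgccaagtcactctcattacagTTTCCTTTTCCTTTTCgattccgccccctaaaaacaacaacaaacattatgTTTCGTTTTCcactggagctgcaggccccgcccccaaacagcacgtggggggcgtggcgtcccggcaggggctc

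NF-κB targets and inflammatory cytokines fell in 12 of 24 and rose in 6, with a median change of -0.29 (-0.06 after normexp). In untreated PC9 they rose in 14 and fell in 3, and the change was more negative with the drug in 16 and more positive in 2. CXCL1, a neutrophil chemokine, stood at 8.42, 8.26, 8.27, 8.07 and 8.27 early and at 6.16, 6.04, 5.53, 5.29 and 5.57 late. It fell by 2.54 (SE 0.166, adjusted p = 1.85e-07), whereas untreated PC9 went from 8.89 to 11.27, a difference of -4.92 (SE 0.201, adjusted p = 2.28e-08). CXCL8, another neutrophil chemokine, was not well above background in either drug window and went from 4.3 to 7.91 in untreated PC9. IL1B, the cytokine interleukin-1 beta, was at least 2.76-fold lower. NFKBIA, the inhibitor that NF-κB induces, rose from 14.01 to 14.62 with the drug and from 13.8 to 15.29 without it, and LTB, lymphotoxin beta, rose from 8.32 to 9.44 and from 7.27 to 8.73. TNFAIP3, a feedback inhibitor, had a change of -0.05 (adjusted p = 0.836), and its probe with the highest mean fell by 1.6 (adjusted p = 8.75e-07).

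Epithelial genes rose in 13 of 26 and fell in 4 with the drug, and rose in 4 and fell in 9 without it. The change was more positive with the drug in 16 and more negative in 3. MUC1, a membrane mucin, stood at 8.88, 9.02, 8.9, 9.1 and 8.88 early and at 11.72, 11.81, 11.93, 11.93 and 12.27 late. It rose by 2.98 (SE 0.121, adjusted p = 7.99e-09), while untreated PC9 went from 8.84 to 7.98. ELF3, an epithelial ETS factor, rose from 11.75 to 13.92. CDH1, the gene of E-cadherin, had 14.09 ± 0.2 early and 14.02 ± 0.14 late (SD, n = 5 arrays each, adjusted p = 0.606). EPCAM fell from 15.73 to 14.54, against 15.9 to 15.28 without the drug, and the tight junction gene CLDN7 from 16.45 to 15.35 (adjusted p = 0.0116, and 0.134 with scan day as a block). In untreated PC9 CLDN7 fell from 17.06 to 15.41 (difference 0.54, adjusted p = 0.0528). With arrays scaled to their 75th percentile, CLDN7 had a change of -0.05 (adjusted p = 0.749). In bulk extracts such as these, more cells of a kind and more RNA a cell cannot be told apart.

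Lung lineage and surfactant genes rose in 9 of 19 and fell in 4, and in untreated PC9 rose in 2 and fell in 4. LPCAT1, an enzyme of surfactant lipid synthesis, rose from 7.31 to 9.09, against 7.93 to 8.31 without the drug. The difference of the changes of LPCAT1 was 1.4, and 0.921 without the 3 h arrays. CEACAM6, a surface glycoprotein, fell from 13.04 to 10.88, and from 13.43 to 12.22 without the drug. SFTPC, surfactant protein C, rose from 6.24 to 7.97 by a probe that its other probe contradicted in sign, and SFTPB, surfactant protein B, was not well above background late. Mesenchymal genes rose in 6 of 13 and fell in 4. SPARC, a matrix protein, rose from 4.38 to 7.83 and went from 3.81 to 4.53 without the drug. FN1, fibronectin, rose from 3.71 to 5.2 (well above background on 3 of 5 late arrays). The rise of FN1 was 1.49, and it exceeded the change in untreated PC9 by 0.57. The call of that difference was lost without hour 0, 0.5, 2, 20 or 21 (adjusted p = 0.0536 to 0.0643) and with scan day as a block (0.0511). VIM, the intermediate filament vimentin, fell from 13.15 to 12.47 and TNC, tenascin C, from 6 to 4.57, while both rose in untreated PC9. ITGA5, the fibronectin receptor subunit, fell from 7.37 to 6.64, and from 8.09 to 7.49 without the drug (difference -0.14, adjusted p = 0.552). The median of the mesenchymal genes (-0.01) turned sign when arrays were scaled to their 75th percentile.

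Lysosome and autophagy genes rose in 25 of 56 and fell in 12, and in untreated PC9 rose in 22 and fell in 13. CTSL, cathepsin L, rose from 14.55 to 16.21 and PSAP, the precursor of the saposins, from 12.4 to 13.81. GABARAPL1, an autophagosome protein, rose from 11.31 to 12.14, and from 10.64 to 12.27 without the drug. SQSTM1, the cargo receptor p62, rose by 0.27 (adjusted p = 0.0404), and by 0.75 in untreated PC9. The call of SQSTM1 was lost on leaving out 7 of the 10 arrays singly (adjusted p = 0.0592 to 0.0877) and with scan day as a block (0.124). MAP1LC3B fell from 11.53 to 9.96, and from 11.92 to 10.8 without the drug, and GLA, alpha-galactosidase A, from 14.6 to 12.96. Untreated PC9 had GLA at 14.37 and 14.86. Of 21 core circadian clock genes, 7 rose and 9 fell, while 10 rose and 2 fell in untreated PC9. NR1D1, the repressor REV-ERB alpha, fell from 10.49 to 8.96, NPAS2 from 10.82 to 8.97 and BMAL2 from 9.61 to 7.06. PER2 rose from 4.7 to 6.02 (adjusted p = 0.00533, and 0.0702 with scan day as a block).

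The remaining lists are given by their counts. Of 36 genes of cholesterol and fatty acid synthesis, 8 rose and 13 fell, and the change was more negative than in untreated PC9 in 21 and more positive in 1. Of 41 ATF4 targets, 6 rose and 16 fell, while 9 rose and 15 fell in untreated PC9. The change of these targets was more negative with the drug in 14 and more positive in 9. Of 20 cytosolic heat shock chaperones, 10 rose and 5 fell, and the change was more negative than in untreated PC9 in 11, where 12 of the 20 rose. Of 21 chaperones of the endoplasmic reticulum, 5 rose and 5 fell, of 24 YAP-TEAD targets 9 rose and 7 fell, of 19 Wnt feedback and target genes 6 rose and 4 fell, and of 23 TGF-beta and BMP response genes 11 rose and 5 fell. In untreated PC9 the rises and falls of these lists, in the same order, were 5 and 5, 9 and 7, 2 and 4, and 10 and 6. The medians of the endoplasmic reticulum and the Wnt genes turned sign under another scaling, and that of the YAP-TEAD genes (-0.25, and -0.04 after normexp) was opposite to its count.

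**Figure D3:**
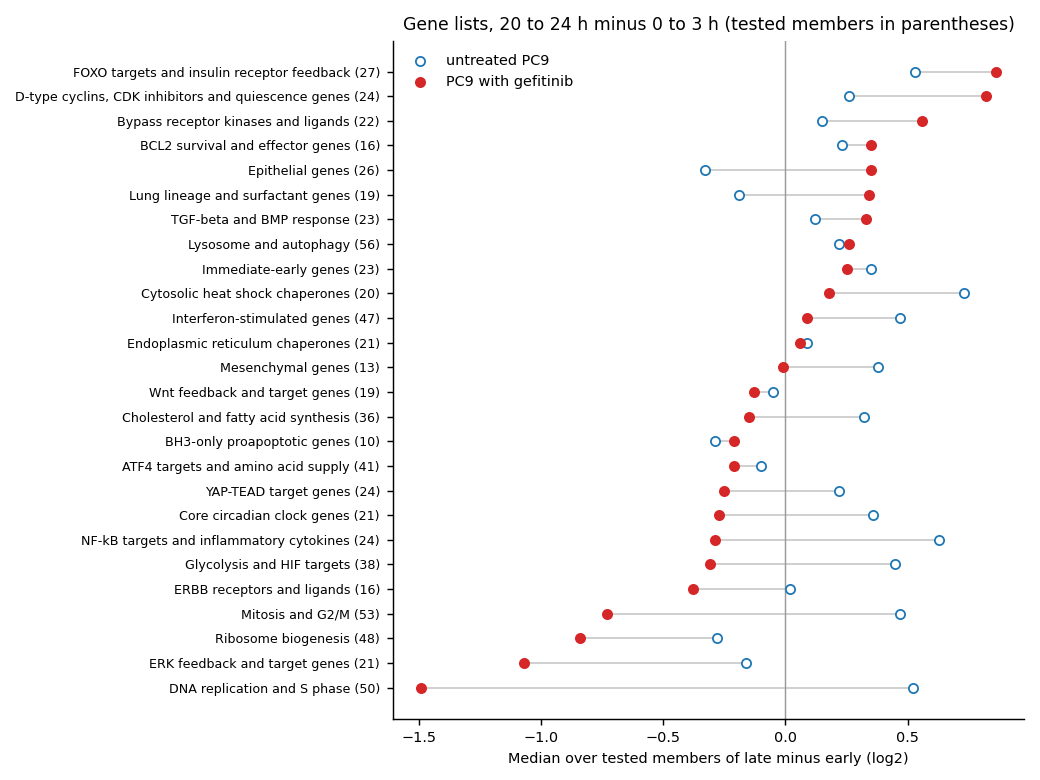
Median change from the early to the late window (horizontal axis, log2) of each gene list (vertical axis), with filled red points for PC9 with gefitinib and open blue points for untreated PC9. The S phase genes lay at -1.49 with the drug and at 0.52 without it, and the ribosome biogenesis genes at -0.84 and -0.28.

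The hour at which a gene passed the midpoint between its window means was taken from the 26 arrays, smoothed by a running median of 3 hours. Among the genes that changed at least 2-fold, it was at a median of 11 h both for 1905 rises (quartiles 8 and 16 h) and for 1991 falls (quartiles 7 and 16 h). By 3 h, 38 rises and 26 falls had passed it. Between 4 and 9 h 711 rises and 716 falls passed it, between 10 and 14 h 499 and 612, and from 15 h on 657 and 637. The ERK targets that fell had a median of 6 h over 11 genes, DUSP6 passing at 5 h and ETV5 at 8 h. Ribosome biogenesis (21 genes) and glycolysis genes (10 genes) that fell had a median of 7 h, with UTP20 at 10 h and PDK1 at 5 h. The S phase genes that fell had a median of 10 h over 38 genes (quartiles 8 and 11 h), and RRM2 passed at 7 h and DTL at 10 h. The mitotic genes that fell had a median of 17 h over 15 genes (quartiles 10 and 19 h), as had the cholesterol synthesis genes that fell (4 genes), with MYBL2 at 11 h and CDK1 at 19 h. Among the rises, the lysosome genes had a median of 8 h (11 genes), the interferon-stimulated genes 11 h (12 genes), the bypass receptors 15 h (9 genes) and the FOXO targets 16 h (11 genes). FGFR3 and FGFR1 passed at 5 and 6 h and ERBB2 at 10 h. These orders are descriptions and were not tested.

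**Figure D4:**
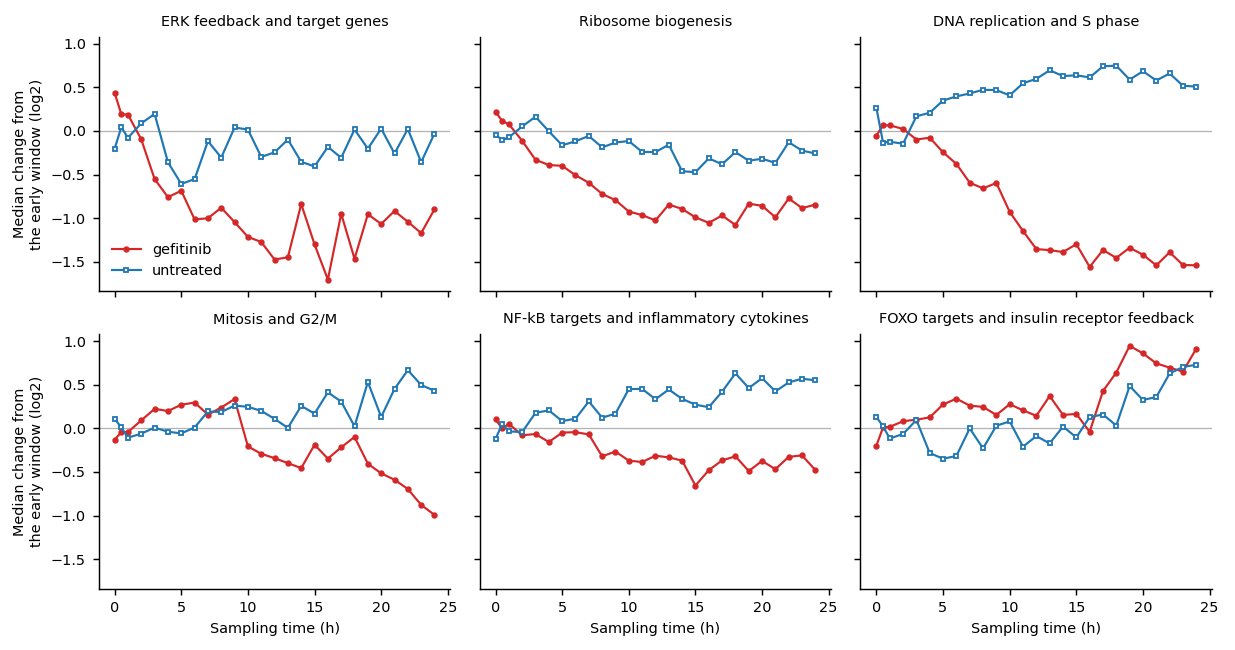
Median change of 6 gene lists from their own early window (vertical axis, log2) against hours (horizontal axis), in PC9 with gefitinib and in untreated PC9. The late medians of the S phase genes were -1.49 with the drug and 0.52 without it.

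The midpoint hours were also unevenly spread over the scan days. From 4 to 19 h, the 5 hours that were the first of a scan day held 304 genes an hour (153 to 409), and the other 11 hours 196 (110 to 325). The part of scan day in the midpoint hours was not tested. Within the 8 scan days of the course, no day held both windows.

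**Figure D5:**
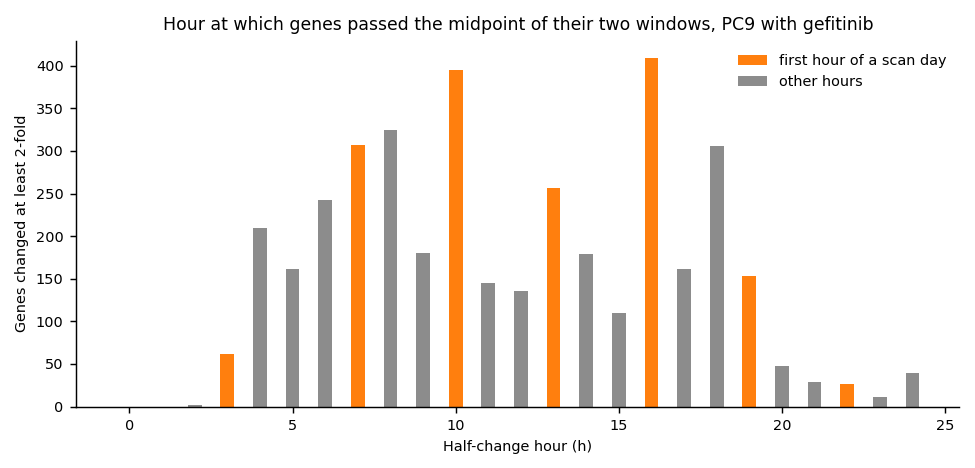
Number of genes with a change of at least 2-fold (vertical axis) by the hour at which they passed the midpoint of their change (horizontal axis), in PC9 with gefitinib. Orange bars are the first hour of a scan day, and 3 of them (7, 10 and 16 h) held 307, 395 and 409 genes.

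The middle hours, 10 to 14 h, were also set against the mean of both ends, from which 5368 genes (40.5%) differed, 2080 (15.7%) higher and 3288 (24.8%) lower. A gene that moved one way throughout can pass this test too, and in 1314 of the 5368 the middle mean lay between the means of both ends. It lay above both ends in 1418 and below both in 2636. The 14 h array had 35414 features well above background, against 29146 to 31695 from 10 to 13 h. Its negative control signal was 40.8, against 17.7 to 23.7. Leaving out each array singly gave 4559 to 5683 genes called. With arrays scaled to their 75th percentile the split was 3506 higher and 2516 lower, a share of 58.2% higher against 38.7%, since this scaling moved the median over all genes from -0.05 to 0.09. The genes named here, with the largest differences among those well above background where they were high, all had middle means outside both ends. The 3 highest above were MYCN, GPR78 and PIP5K1C. MYCN, a transcription factor of the MYC family, went from 7.54 to 9.75 and back to 6.43, a difference of 2.76 (SE 0.469, adjusted p = 0.000603). MYCN had 4 arrays in each end window, and PIP5K1C, a lipid kinase, 3 early and 1 late, since the other spots were outliers. The call of PIP5K1C (difference 2.65, adjusted p = 0.0338) was lost without the 3 or the 14 h array (adjusted p = 0.0513 and 0.0543). GPR78, an orphan receptor, went from 8.62 to 10.59 and to 7.09. The 3 farthest below were HCCS, PIGA and UNC13A. HCCS, which attaches heme to cytochrome c, went from 6.15 to 3.21 and to 5.61 (difference -2.67, SE 0.311, adjusted p = 2.66e-05), with 0 of the 5 middle arrays well above background. PIGA, an enzyme of GPI anchor synthesis, went from 5.95 to 3.35 and to 5.44 and was well above background on 1 of 5 middle arrays. UNC13A, a synaptic priming factor, went from 8.19 to 4.77 and to 5.65. The depth of these 3 depended on the processing, although their calls were kept in all other settings. There the differences ranged from -2.87 to -0.323 for HCCS, from -2.56 to -0.263 for PIGA and from -2.31 to -0.599 for UNC13A.

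The resistant line PC9M2 went through the same hours of gefitinib on slides of its own, so that line and slide cannot be told apart. Its arrays did not lose features well above background as those of PC9 did, with 28809 to 32488 early and 29028 to 32950 late. Their negative control signal was 26.0 to 36.4 early and 24.9 to 29.1 late, and they had 0 saturated features, against 513 to 1113 in PC9. The part of such array differences in the comparison of the lines was not tested. Untreated arrays did not enter this comparison. Change over the hours without the drug and change under it therefore cannot be told apart in it. The change differed between the lines in 6824 genes (51.5%), being more positive in PC9M2 in 3549 (26.8%) and more negative in 3275 (24.7%). All 50 S phase genes changed more positively in PC9M2, with a median difference of 2.1. RRM2 went from 6.76 to 8.84 in PC9M2 and from 10.02 to 7.05 in PC9. Of the ERK targets, 16 of 21 changed more positively in PC9M2 and 0 more negatively. DUSP6 went from 8.22 to 11.84 in PC9M2, against 8.77 to 5.42 in PC9, a difference of 6.98 (SE 0.328, adjusted p = 1.47e-11). SPRY4 went from 5.85 to 8.96 in PC9M2. Ribosome biogenesis genes changed more positively in PC9M2 in 29 of 48 and more negatively in 2. The mitotic genes changed more positively in 15 of 53 and more negatively in 11, shares near those of all genes (26.8% and 24.7%). FGFR3 rose in both lines, from 9.66 to 12.34 in PC9M2, and ERBB2 went from 13.38 to 14.22 there, a change smaller by 2.06 (difference -2.06). The lysosome genes changed more negatively in PC9M2 in 26 of 56 and more positively in 9.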

How the data were processed

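The authors hybridised Cy3-labelled cRNA to 1-colour whole human genome arrays and extracted the spots with Feature Extraction 10.5.1.1, per the file headers. They deposited 1 scanner file an array, whose processed signal is an intensity on a linear scale, already corrected for background, and a table of intensities that was quantile normalized over all features. Here the processed signals of all 208 arrays were quantile normalized over the features without control spots. They were then set to at least 1 and put on the log2 scale. The authors' deposited intensities were kept as an alternative. Outlier spots were left out (0.0793% of tested values). Of 41000 probes, 24794 matched 1 RefSeq symbol. The probe of largest variance stood for its gene, and genes well above background on 13 or more of the 26 arrays of a course were tested (13263 of 16961).

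Tests were run with limma 3.58.1 in R 4.3.3 (lmFit, eBayes, Benjamini-Hochberg), and a script was tested on simulated data first. The test against untreated PC9 used differences between arrays of 1 slide and hour, and that between lines used the interaction of line and window. The genes named were 8 rises, 8 falls, 10 by difference from untreated PC9, 3 peaks, 3 troughs, 2 anchors and up to 4 called members a list, and EGFR, some of which are not reported here. Members and lists were chosen with earlier results of these data known. Alternatives were scaling, normexp with an offset of 50 (on the median signal, as the files hold no mean signal), probe choice, filters, a floor of 16, windows, time models, scan day as a block and leaving out each array.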

Additional observations from a re-analysis of the deposited data

Results flagged for a closer look

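In 21 of 255 windows of 5 arrays, 1 array stood apart from the other 4 by Dixon's criterion, which chance meets in about 1 in 20. Of 14 early windows, 12 had the 3 h array apart, the last hour of the early window and on another scan day than 0 to 2 h. At 3 h, CDK1 (12.33), ISG15 (13.01) and NEK3 (5.07) were high, and APCDD1L (6.72), JUNB (7.63), MYBL2 (10.92), GAS6 (5.7), BCL2L1 (4.93), TNFAIP3 (5.52), NCL (11.88), NPAS2 (10.32) and ITGA5 (6.94) were low. At 1 h, SLC7A11 (8.1) and NKAIN4 (4.18) were high. Among the late windows, the 24 h array was high for APCDD1L (2.32), IFITM1 (9.94), E2F2 (14.02) and APAF1 (8.06) and low for CENPI (3.02) and SFTPB (2.69), and the 22 h array was high for DDR2 (2.95). The values are log2 normalized intensities, and APCDD1L, DDR2, CENPI and SFTPB were not well above background late.

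The change under gefitinib differed between PC9M2 and PC9 in 98 of the 130 genes named (limma, interaction of line and window), and in 33 of them its sign was opposite. That sign is the sign of the change of the means, and the change within PC9M2 was not tested. Some of the 33 hardly moved in PC9M2, such as CDK4 (0.02), NFKBIA (-0.05), SPARC (-0.15) and ITGA2 (0.16). Others moved far, such as DUSP6 (3.63) and PFKFB3 (-3.16). Each value that follows is the change in PC9M2 minus the change in PC9 on the log2 scale, and slide and line cannot be told apart. Untreated arrays did not enter these values. With opposite signs, the change was more positive in PC9M2 for DUSP6 6.98, DTL 5.32, ITGA2 5.12, RRM2 5.05, EGR3 3.93, CENPI 3.76, SPRY4 3.56, CXCL1 3.56, MYBL2 3.38, EGR1 3.09, HBEGF 2.99, MCM2 2.85, OASL 2.54 and CEACAM6 2.32. Further differences of that kind were DDR2 2.29, LRIG3 1.69, CDK4 1.62, MST1R 1.51, NOP56 1.34, CLDN7 1.29 and ISG15 0.81. With opposite signs, it was more negative for PFKFB3 -5.39, SPARC -3.6, EEF1AKMT2 -3.44, LTB -2.42, BMF -2.21, CENPF -2, TACC3 -1.35, CDKN1B -1.35, IRS2 -1.23, GABARAPL1 -1.14, SQSTM1 -0.87 and NFKBIA -0.67. With the same sign in both lines, it was more positive in PC9M2 for ETV5 5.16, CA9 4.02, ANKRD22 3.86, SGPP2 3.8, APCDD1L 3.65, HSD3B1 3.45, ITGA6 3.2, SLC7A11 3.1, GREB1 2.76, ARNT2 2.45, PDK1 2.32, UTP20 2.31, UNC13A 2.1 and HERC5 2.03. Further differences of that kind were CYP1A1 1.99, MARCHF4 1.81, FOS 1.61, GLA 1.57, SOD2 1.52, BOP1 1.45, CDK1 1.37, BCL2L12 1.19, MAP1LC3B 1.19, EIF4EBP1 1.18, FN1 1.16, NR1D1 1.03, TNC 1.01 and BNIP3L 1. Further differences of that kind were EPCAM 0.95, BIRC3 0.87, CCND1 0.84, NPAS2 0.82, BMAL2 0.78, E2F2 0.77, LIG1 0.68 and ITGA5 0.51. With the same sign, it was more negative for NEK3 -3.85, AGXT -3.79, AQP3 -2.69, FBLN2 -2.59, SPEF2 -2.52, TOB1 -2.14, ERBB2 -2.06, NKAIN4 -1.95, UBTF -1.95, PLXDC1 -1.94, GBP2 -1.77, ELF3 -1.75, LPCAT1 -1.64 and TPPP3 -1.52. Further differences of that kind were ATP6V1B1 -1.51, PIK3IP1 -1.49, CTSL -1.48, CYP4B1 -1.46, GAS6 -1.43, CCN5 -1.41, CBLB -1.33, IFITM1 -1.13, AXL -1.1, BAD -0.98, PSAP -0.96, MUC1 -0.95, IFIT1 -0.78 and HRK -0.69. Further differences of that kind were  and CDH1 -0.6.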

How the results depend on the processing

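Counts of genes called stayed within 1.5 times of those reported under other scaling, background correction, probe, filter, floor, variance, window and time settings and with scan day as a block. They moved where a change of at least 2-fold was also asked for: to 3911 genes with gefitinib, 4070 against untreated PC9, 2447 in untreated PC9, 3858 with EGF and gefitinib, 3394 between the lines and 1015 for the middle hours. Leaving out 1 array or hour gave 7885 to 8726, 7426 to 8238, 6397 to 7445, 8473 to 8920, 6419 to 6943 and 4559 to 5683 genes in the same order. With scan day as a block 6225 genes were called with gefitinib, and 12 of the 115 genes of the text lost their call. Against untreated PC9 the block gave 6975 and the test without pairing of hours 6824. In that comparison 8 of the 101 genes of the text lost their call under the block. Genes that turned sign and passed the test in at least 1 of both settings did so with the probe of highest mean for CCND1 (-0.31), BCL2L11 (0.69), HRK (-0.69) and SFTPC (-0.76), and against untreated PC9 for HCCS (-0.57), PIGA (-0.37) and HRK (-0.57). BCL2L11 also turned under the spline over 26 arrays (0.0434), and EGR3 against untreated PC9 after normexp (0.14). The cause was not tested. Of 3612 other values of the 130 genes with gefitinib, 3477 kept their call or its absence, 95 lost and 35 gained the call. Of the values without a call in either setting, 31 lay on the other side of 0, in 10 genes, such as PIP5K1C (up to 0.76), SFTPB (up to 0.32) and TNFAIP3 (up to 0.12), and 41 against untreated PC9, in 16 genes. Where a window was not well above background, the signal sets only a bound on the fold.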

Other observations

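The 14 genes and 5 families named here were chosen after their values were seen and carry no test as a group. CIITA, the activator of class II MHC genes, went from 4.41 to 8.82 with gefitinib (adjusted p = 4.86e-08) and stayed at 3.42 and 3.44 in untreated PC9, where no late array was well above background. HLA-DMB, a chaperone of class II peptide loading, went from 3.44 to 7.8 and HLA-DMA, its partner, from 9.3 to 10.2. HLA-DRB1, a class II beta chain, had 7.65 and 7.8 (adjusted p = 0.568). Of 9 class II genes including CIITA, 4 rose and 3 fell, and against untreated PC9 the change was more positive in 5 and more negative in 0.

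Genes of cilia and flagella moved both ways. RSPH1, a radial spoke protein, rose from 8.58 to 11.89, CFAP45 from 7.49 to 10.39 and DNAI7 from 3.1 to 6.99, while DNAH2, a dynein heavy chain, fell from 12.68 to 11.03. RSPH1 and CFAP45 also rose in untreated PC9, from 8.11 to 8.69 and from 7.36 to 8.13. Of 36 tested CFAP, DNAH, DNAI, RSPH and TEKT genes, 17 rose and 10 fell, beside 32.1% and 33% of all genes. In untreated PC9 11 rose and 10 fell, and the change was more positive with the drug in 17 and more negative in 7. Of 18 integrin subunits, 15 fell and 1 rose, with a median change of -0.78, against 7 and 6 in untreated PC9. ITGA1 fell from 6.96 to 5.66 with the drug and went from 6.97 to 7.97 without it. ITGB5 fell from 13.35 to 12.16, and ITGB4 from 13.98 to 13.27. Without the drug ITGB4 also fell, from 13.98 to 13.49, and the changes did not differ by limma (difference -0.22, adjusted p = 0.297). Of 11 laminin chains, 3 rose and 5 fell, against 3 and 4 in untreated PC9. LAMB2 rose from 13.61 to 15.59, saturated on 4 of 5 late arrays. Of 34 keratin genes, 16 rose and 9 fell, against 6 and 11 in untreated PC9. KRT6B, a keratin of activated epithelia, fell from 14.78 to 11.18, and KRT15, a basal keratin, rose from 14.43 to 16.47.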
